A study of Mus musculus with 4 samples.

Results

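GATA2 summits were described at 6 metabolic genes of the mouse: Cs, Psat1, Npc2, Auh, Slc25a23 and Slc2a3. The genes were chosen partly by the strength of the summits near them in the same peak list. The fold enrichments below therefore describe the choice and carry no test. Strength alone does not give this set, as the metabolic gene Aldh6a1, not a member, had a stronger summit (8.42-fold) than the member Slc2a3 (6.64-fold). Every summit inside a member gene or within 100 kb of it was taken. This gave 10 of the 995 summits, in 9 of the 945 intervals. The cells were BVSC+ germ cells purified from fetal ovaries at E13.5, from litters of C57BL/6J females mated with BVSC males. BVSC mice carry Blimp1-mVenus and Stella-ECFP transgenes, and all 4 libraries came from such cells after trypsin digestion. For 2 libraries the cells, held on ConA beads, were incubated with a rabbit anti-GATA2 antibody, and pA-Tn5, a transposase that binds to the antibody, cut and tagged the DNA nearby (CUT&Tag). The other 2 were input libraries with no antibody. The labels do not say how many fetuses gave each library. The peak list was read as pooled over both GATA2 replicates, so no value has a replicate error, and differences between the replicates could not be seen. A peak list holds no expression values, and the labelled cell type was not checked against markers here.

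GATA2 is a zinc finger transcription factor that recognises short DNA strings with GATA at their core and is best known from blood stem and progenitor cells. The 6 genes belong to different branches of metabolism. CS, citrate synthase, joins acetyl-CoA to oxaloacetate at the entry of the citric acid cycle, and PSAT1 makes phosphoserine on the route from glycolysis to serine. AUH is a mitochondrial hydratase of leucine breakdown that also binds AU-rich RNA. SLC25A23 exchanges ATP-Mg for phosphate across the inner mitochondrial membrane under control by calcium, SLC2A3 (GLUT3) is a glucose transporter of high affinity, and NPC2 carries cholesterol inside the lysosome to the membrane protein NPC1.

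At Cs, Psat1 and Npc2 the strongest summit lay at the transcription start site, at Slc25a23 it lay just upstream of it, and at Auh and Slc2a3 it lay far from both gene ends. Of the 10 summits, 4 were within 1 kb of an end of the member gene, all 4 at the start, and 6 were farther away. For 2 of these 6 another protein-coding gene was nearer and lay within 1 kb, so that 6 of the 10 summits lay within 1 kb of some protein-coding gene end. Across the whole list 36.7% of summits lay within 1 kb of such an end. Within 100 bp of a start site lay 3 of the 10, beside 11.1% of the 963 summits on chromosomes with annotated start sites. With 10 summits, 3 of which are neighbours at Auh, these shares are a description.

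**Figure D1:**
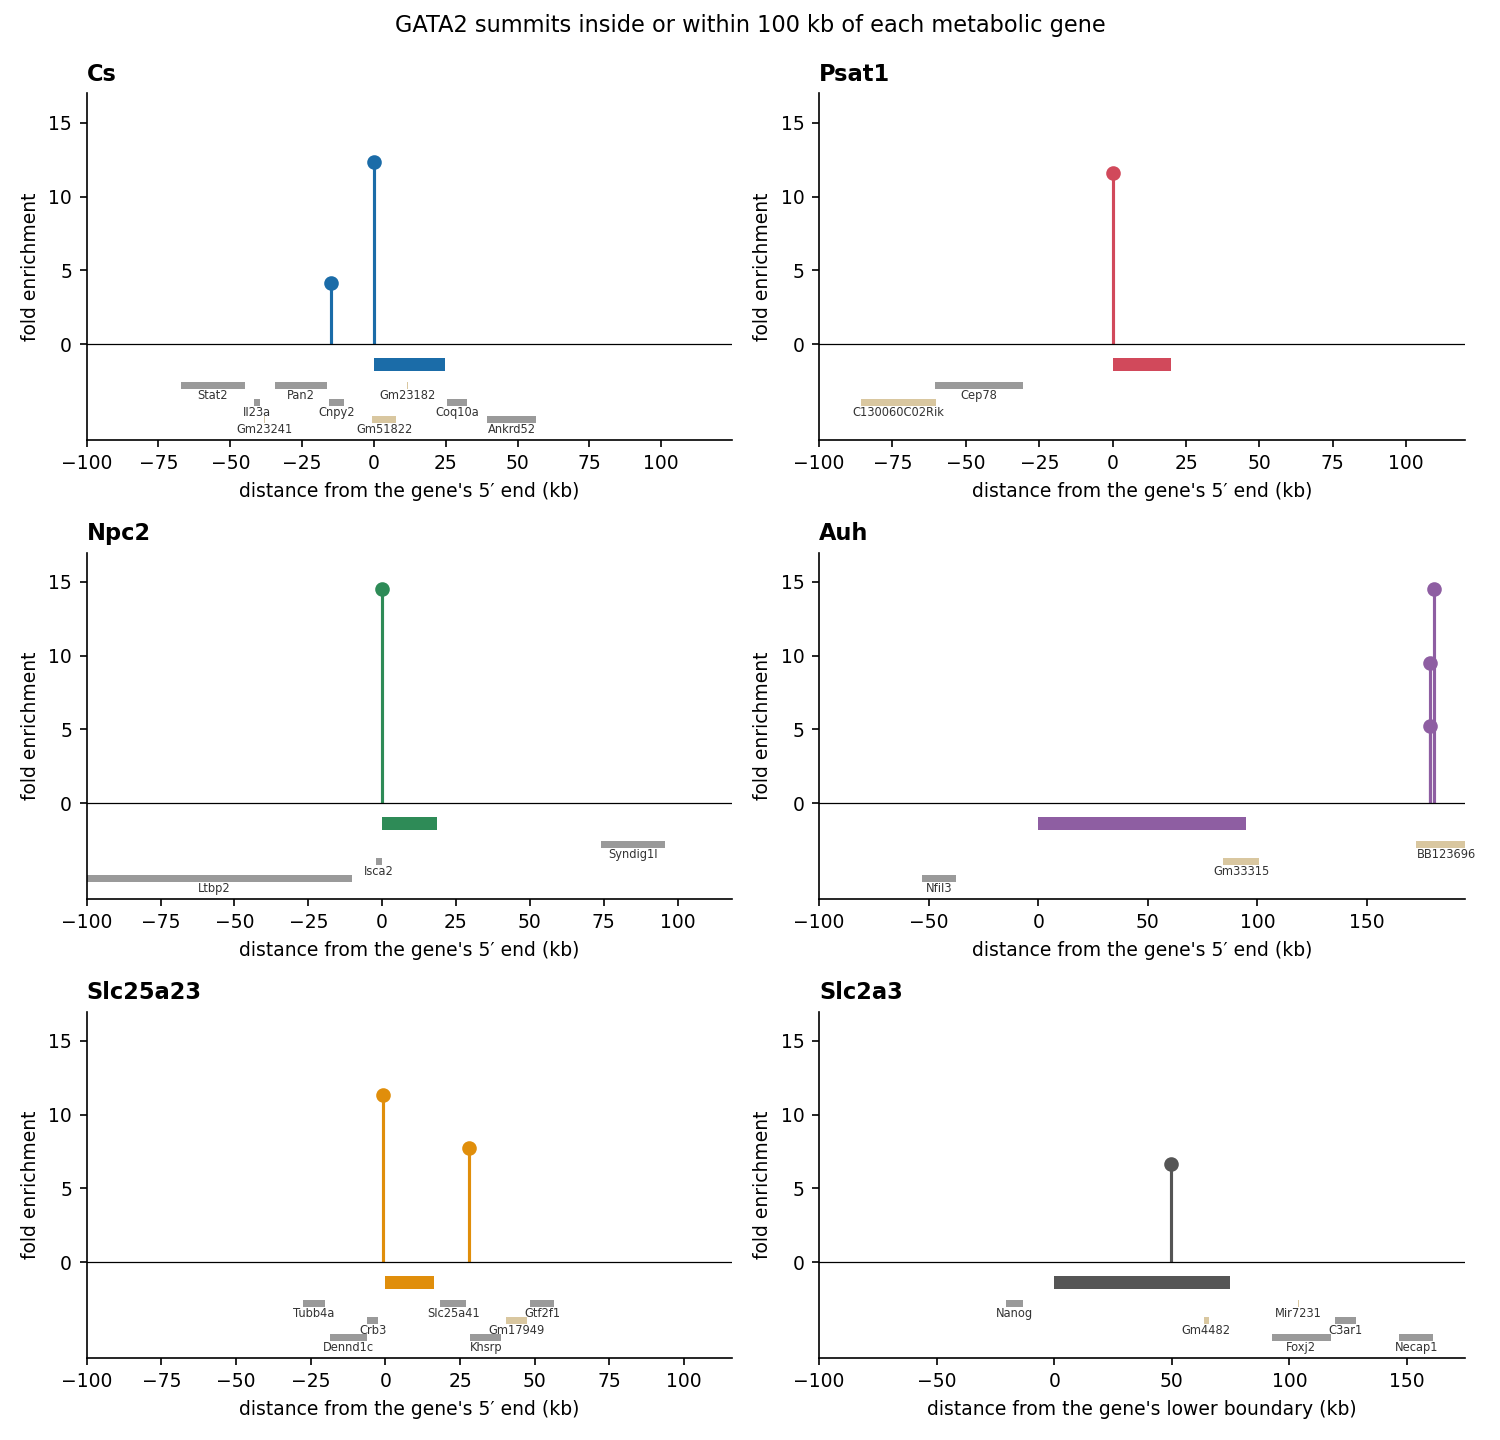
Fold enrichment (vertical axis) of every summit inside or within 100 kb of each member gene, against distance in kb from the gene's 5′ end, or for Slc2a3 from its boundary of lower coordinate. Coloured bars are the member genes, grey bars the nearest other protein-coding genes and tan bars the nearest noncoding genes and pseudogenes; the highest summits of Cs, Psat1, Npc2 and Slc25a23 stand at the start of the coloured bar, and those of Auh stand 84.1 to 86.0 kb beyond its far end.

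The fold enrichment is the peak caller's ratio of signal at the summit to local background, with 1 added to each. The first 14 places of the list by fold held the leading summits of 5 members, with Npc2 and Auh sharing place 8 at 14.6-fold, Cs at place 10, Psat1 at 13 and Slc25a23 at 14. The summit next above them had Etv5 as its nearest gene (15.2-fold), and the one next below Slc25a23 had Id3 (11.3-fold). Slc2a3 stood apart from these 5, at place 118 with 6.64-fold. The lowest of the 10 summits, a distant one near Cs, had the median fold of the list (4.15). All 10 had a q of at most 0.05, as did 67.7% of all summits. Nothing is read from this since the members were chosen partly by strength. All 9 intervals were wider than the list's median of 332 bp, at 463 to 1127 bp. Wide intervals and high folds are 2 measures of the same signal and do not count as separate evidence.

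**Figure D2:**
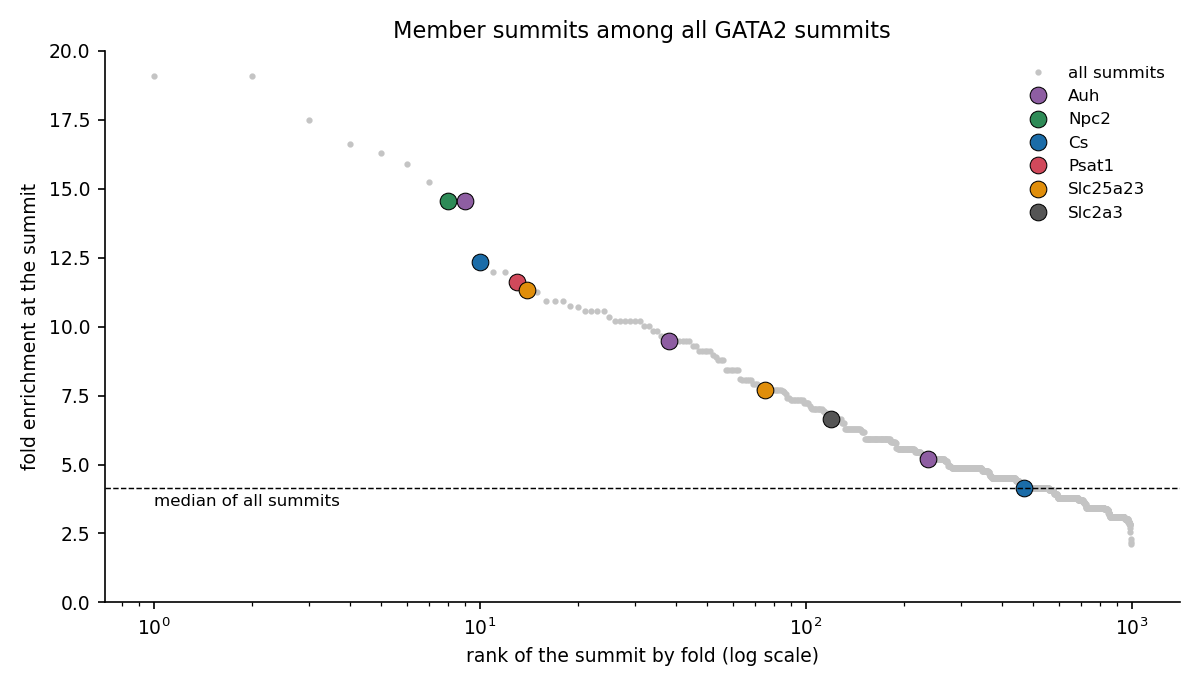
Fold enrichment at all 995 summits (grey) against their rank on a log scale, with the 10 member summits in colour and the median as a dashed line. The leading summits of Npc2, Auh, Cs, Psat1 and Slc25a23 lie between places 8 and 14, the Slc2a3 summit at place 118, and the lowest Cs summit on the median.

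The number of fragments sets how well these values are known. Solving the caller's fold and p together gave 39 GATA2 fragments at the leading summits of Npc2 and Auh (95% Poisson interval 27.7 to 53.3), 32 at Cs (21.9 to 45.2), 31 at Slc25a23 (21.1 to 44.0) and 30 at Psat1 (20.2 to 42.8). The 5 intervals overlap, so the order of these genes is not resolved at this depth. The Slc2a3 summit held 16 fragments (9.15 to 26.0). Its interval overlaps those of the leading summits of Cs, Psat1 and Slc25a23 but not those of Npc2 and Auh. The intervals of the weaker Auh summits (15.4 to 35.7 and 6.20 to 21.0) overlap it. The genes were chosen partly by this same signal, so no difference between genes is read from these intervals. The median over all summits was 9 fragments. The background expected at a position, put on the scale of the GATA2 library, was 0.161 fragments at 7 of the 10 summits, the genome-wide level. It was higher at the leading summits of Npc2 and Auh (0.215 each) and Slc25a23 (0.322), and raised backgrounds of this kind occurred at 29.9% of all summits. The intervals cover counting error only.

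**Figure D3:**
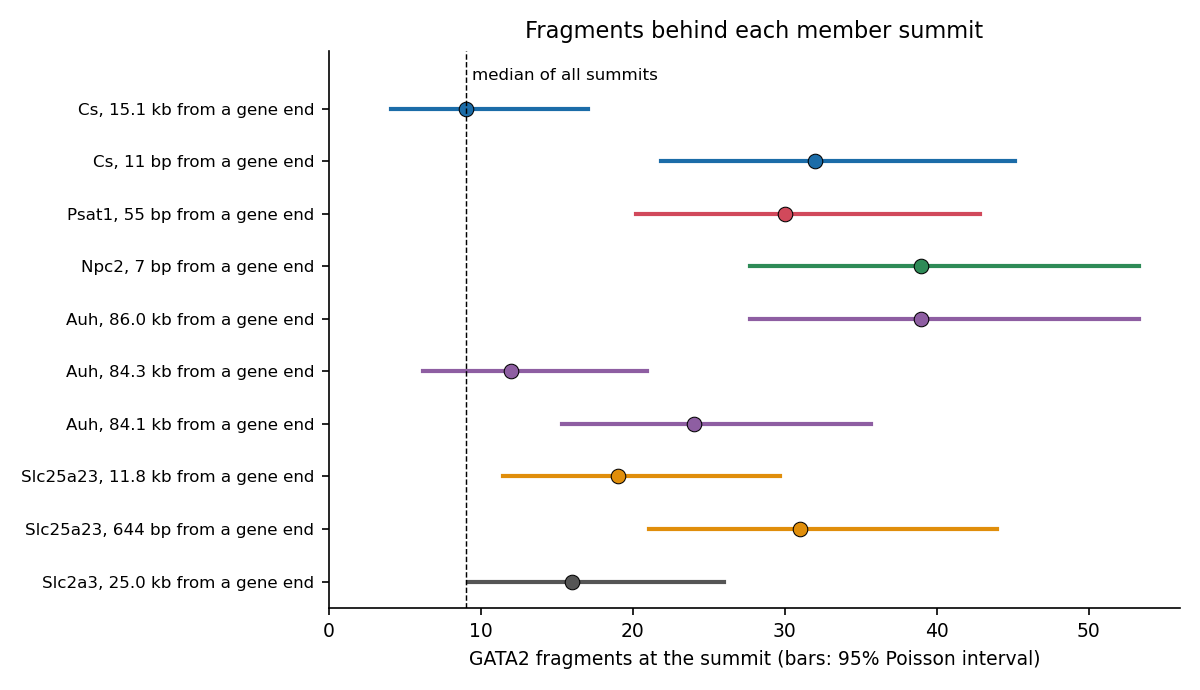
GATA2 fragments at each member summit (points) with 95% Poisson intervals (bars), labelled by the distance from the nearer end of the member gene; the dashed line is the median of all 995 summits, 9 fragments. The intervals of the leading summits of Cs, Psat1, Npc2, Auh and Slc25a23 lie wholly above that line, which follows from their choice by strength. Those of the Cs summit 15.1 kb away and of the weakest Auh summit reach across it.

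The mitochondrial enzyme gene Cs (chromosome 10, 128337727 to 128362482, plus strand) had its main summit at 128337716, 11 bp upstream of its start site. The interval, 858 bp wide (128337352 to 128338209), reached 375 bp upstream and 482 bp downstream of the start. The fold was 12.3 and the −log10 q 19.4. This summit also lies inside the overlapping lncRNA gene Gm51822, 577 bp from its boundary. The other Cs summit, at 128322630, was 15.1 kb upstream (4.15-fold on 9 fragments, interval 4.12 to 17.1, −log10 q 1.75, width 463 bp). There Cnpy2, a canopy family gene, was nearer, as the summit lay inside it and 171 bp downstream of its start site, and Pan2, which encodes a subunit of an mRNA deadenylase, was 1.27 kb away. The Cs promoter is shown because the summit falls in it, as base 240 of the run, from 250 bases before the start site to 20 after (GRCm38.p6, chr10:128337477-128337746, plus strand, RefSeq). Capitals mark GATA, the core of the GATA recognition string. The match stands 88 bp from the summit and is not part of a longer 6-letter string. The 6-letter strings searched were AGATAA and AGATAG, and TGATAA and TGATAG.
Cs: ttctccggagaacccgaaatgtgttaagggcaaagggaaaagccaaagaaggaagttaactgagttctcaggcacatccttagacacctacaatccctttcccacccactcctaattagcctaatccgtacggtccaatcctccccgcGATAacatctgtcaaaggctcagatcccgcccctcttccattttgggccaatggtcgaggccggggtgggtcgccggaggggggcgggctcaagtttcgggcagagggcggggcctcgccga

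Psat1 (chromosome 19, 15905123 to 15925059, minus strand) had a single summit in reach, at 15925114, 55 bp upstream of its outer start site. It carried 11.6-fold enrichment and a −log10 q of 17.2. Its interval was the widest of the 9, 1127 bp (15924421 to 15925547), and place 8 by width among all 945. It covered both annotated start sites, at 15925059 and 15924622, reaching 488 bp upstream and 638 bp downstream of the outer one. No other gene was close, the next being the centrosomal gene Cep78 at 30.7 kb, and the next summit lay 524 kb from Psat1. The outer promoter is shown because it holds the summit, as base 196 (GRCm38.p6, chr19:15925040-15925309, minus strand, RefSeq). In capitals is its GATA, 5 bp from the summit position. The second sequence is a stretch of 30 bases from the window of the inner start site (chr19:15924742-15924771, minus strand), with the 6-letter match AGATAG in capitals, 355 bp from the summit and inside the interval.
Psat1 outer start: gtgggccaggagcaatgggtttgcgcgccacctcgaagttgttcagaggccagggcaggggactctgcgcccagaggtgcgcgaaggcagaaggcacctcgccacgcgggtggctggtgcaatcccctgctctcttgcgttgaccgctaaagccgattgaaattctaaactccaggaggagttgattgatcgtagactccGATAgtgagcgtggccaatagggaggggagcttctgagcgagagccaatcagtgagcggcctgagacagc
Psat1 inner start: gccgccgtggagAGATAGttgctgaggccg

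The lysosomal cholesterol carrier gene Npc2 (chromosome 12, 84754559 to 84773112, minus strand) had its only summit at 84773105, 7 bp inside the gene from its start site. The fold was 14.6 and the −log10 q 22.1, over an interval of 751 bp (84772773 to 84773523) from 411 bp upstream to 339 bp downstream of the start. Isca2, which encodes an assembly factor of mitochondrial iron-sulfur proteins, starts close by in the opposite direction. Its boundary was 125 bp from the summit and its start site 165 bp, both inside the interval, so the summit cannot be assigned to Npc2 over Isca2 by more than this difference in distance. The next protein-coding gene, Ltbp2, was 10.1 kb away. The Npc2 promoter is shown because it holds both the summit, as base 258, and a 6-letter GATA match, AGATAA in capitals, 64 bp from the summit (GRCm38.p6, chr12:84773093-84773362, minus strand, RefSeq). A second such match lies 58 bp on the other side of the summit. It is shown in 30 bases read on the strand of Isca2, where AGATAA appears as its reverse complement (chr12:84773030-84773059, plus strand).
Npc2 start: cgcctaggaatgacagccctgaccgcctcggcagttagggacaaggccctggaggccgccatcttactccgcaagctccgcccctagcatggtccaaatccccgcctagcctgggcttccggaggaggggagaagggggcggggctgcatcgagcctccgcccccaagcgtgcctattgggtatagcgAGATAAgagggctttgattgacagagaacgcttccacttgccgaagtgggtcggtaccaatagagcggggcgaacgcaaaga
Isca2 strand: gcagctcgccctTTATCTccgcccatctct

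The carrier gene Slc25a23 (chromosome 17, 57043711 to 57059909, minus strand) had 2 summits, on either side of the gene. The stronger, at 57060553 (11.3-fold, −log10 q 13.9), was 690 bp upstream of the nearer of its start sites, at 57059863. Its interval of 554 bp (57060286 to 57060839) ended 423 bp short of that start site, unlike the intervals of Cs, Psat1 and Npc2, which covered theirs. The cell polarity gene Crb3 began 1.65 kb away on the other side. The weaker summit, at 57031936 (7.71-fold on 19 fragments, interval 11.4 to 29.7, −log10 q 8.91, width 575 bp), was 11.8 kb beyond the 3′ end of Slc25a23. Nearer to it were Khsrp, encoding an RNA-binding protein of splicing and mRNA decay, whose start site was 429 bp away, and Slc25a41, a paralog of Slc25a23 in the same carrier family, 836 bp away. A 6-letter match, TGATAA read on the opposite strand, lay at the start sites of Slc25a23, 716 bp from the stronger summit and outside its interval. Another, AGATAG on the opposite strand, lay 213 bp from the weaker summit and inside its interval, upstream of Khsrp. Both are shown in 30 bases with the match in capitals, to set the matched string outside the interval beside the one within it (GRCm38.p6, chr17:57059820-57059849 and chr17:57031706-57031735, both minus strand, RefSeq).
Slc25a23 start: gacgactagcatTTATCActtccagcaagt
Khsrp upstream: gcttattgagtcCTATCTtcgtcagtcaca

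**Figure D4:**
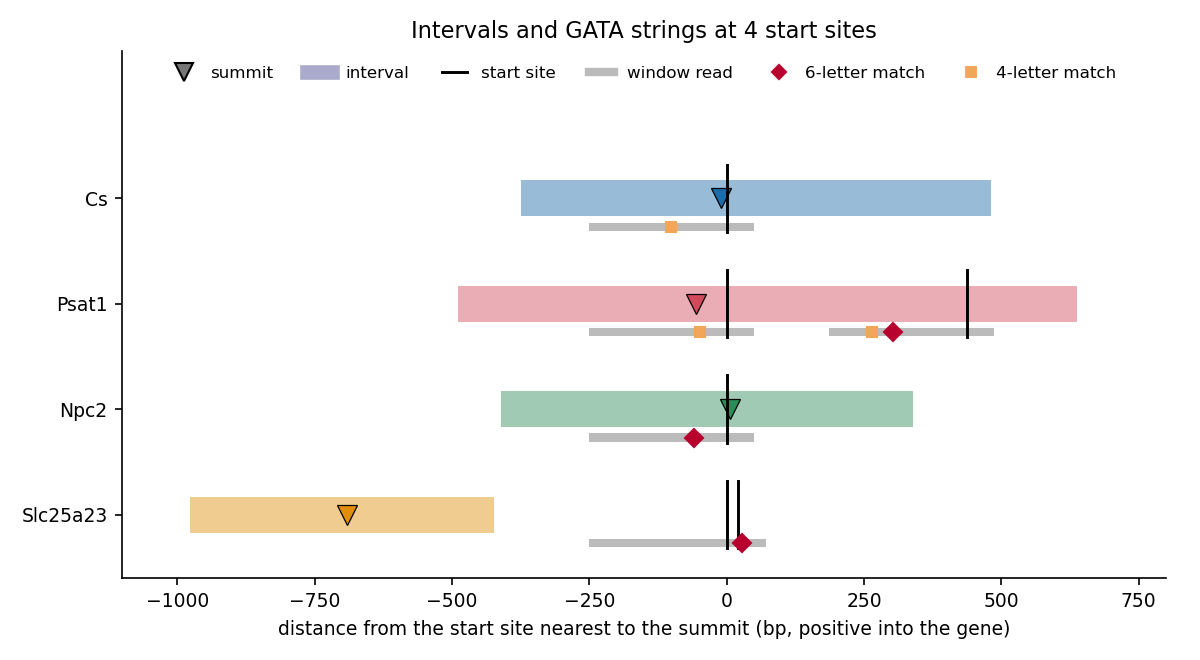
Intervals (coloured bars) and summits (triangles) around the start sites (black lines) of Cs, Psat1, Npc2 and Slc25a23, in bp from the start site nearest to the summit, with the promoter windows read in grey, 6-letter GATA matches as diamonds and other GATA strings as squares. The intervals of Cs, Psat1 and Npc2 cover their start sites, and that of Slc25a23 ends 423 bp upstream.

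Auh (chromosome 13, 52835107 to 52929704, minus strand) had the most summits, 3 in 2 intervals, and none near it. They lay 84.1, 84.3 and 86.0 kb beyond its 3′ end and 179 to 181 kb from its start site. The strongest, at 52749109 (interval 52748679 to 52749535, 857 bp), had 14.6-fold enrichment and a −log10 q of 22.1, the same fold and fragment number as the Npc2 summit. The other interval, 1046 bp away (52750582 to 52751250, 669 bp), held summits at 52750985 (9.49-fold on 24 fragments, 15.4 to 35.7, −log10 q 12.9) and at 52750781 (5.22-fold on 12, 6.20 to 21.0, −log10 q 3.37). These 2 are 204 bp apart in the same interval and can share fragments. All 3 lay inside the lncRNA gene BB123696, 6.22 to 8.10 kb from its nearer boundary, which is the nearest annotated gene of any kind. Auh was the nearest protein-coding gene, and the tyrosine kinase gene Syk, on the other side, was only a little farther, at 100.3 to 102 kb. Auh was the only protein-coding gene within 100 kb of these summits, whereas the median summit of the list had 3. The Auh start site itself had no summit.

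Slc2a3 (chromosome 6, 122727809 to 122802363) had its summit inside the gene, at 122777367, 25.0 kb from the nearer boundary. The promoter windows used here give no strand or start site for Slc2a3, so the distance of its summit from a start site is not known. The fold was 6.64 and the −log10 q 7.02, over 649 bp (122777069 to 122777717). The pseudogene Gm4482, which lies within the span of Slc2a3, was nearer by its boundary, at 14.2 kb, while the next protein-coding genes were the forkhead gene Foxj2 at 42.8 kb and the pluripotency gene Nanog at 62.7 kb. The summit is thus also within 100 kb of Nanog. Summits just beyond the limit of 100 kb lay 101.3 kb from Slc2a3 (4.20-fold) and 101.1 kb from Slc25a23 (5.12-fold), while beyond the other 4 members the next summit was 233.7 kb or more away. The farthest summit taken was that of Auh at 86.0 kb.

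The promoter windows, from 250 bases before to 50 after a start site, numbered 7 for 5 members. A 6-letter GATA match (any of the 4 strings named above, on either strand) was present in 4 of the 7 windows, at Npc2, at the inner start of Psat1 and in the 2 overlapping windows of Slc25a23, which hold the same match. Such a match was found in 25.8% of 21044 windows of protein-coding genes and in 29.3% of the 205 that held a summit. The 21044 windows belong to 17273 of the 21627 protein-coding genes, and genes without a window, such as Slc2a3, are outside these shares. The 4-letter GATA was present in 6 of the 7 windows, all but that of Auh, beside 52.8% of all windows and 65.9% of those with a summit. Of the 3 member windows that held a summit, only that of Npc2 had a 6-letter match. A match is a string in the reference and was not tested as a binding site.

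To set the members beside their pathways, 6 lists with 176 metabolic genes were counted, and the 6 members were then left out. Of the 170 other genes, 33 (19.4%) had a summit inside or within 100 kb, beside 14.9% of all protein-coding genes. For 20 of the 33 another gene was nearer to the strongest summit. Within 1 kb of a gene end the count was 13 of 170 (7.65%), beside 1.99% of all protein-coding genes. These counts leave out the member genes but not their summits, and 1 of the 13, Slc25a41, counts through the weaker Slc25a23 summit. With the 10 member summits left out too, the counts were 33 of 170 and 12 of 170 (7.06%), beside 14.8% and 1.95% of the other protein-coding genes. Among genes with a CpG-rich promoter window (at least the median of 13 CpG), it was 10 of 113 (8.85%), beside 3.26%. The folds at the 13 genes had a median of 3.78 and a range of 3.02 to 8.42. A q of at most 0.05 was reached at 6 of the 13, beside 62.1% of all 430 protein-coding genes with a summit this close. No test was made of these shares, and the lists were written with earlier results of these data known.

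**Figure D5:**
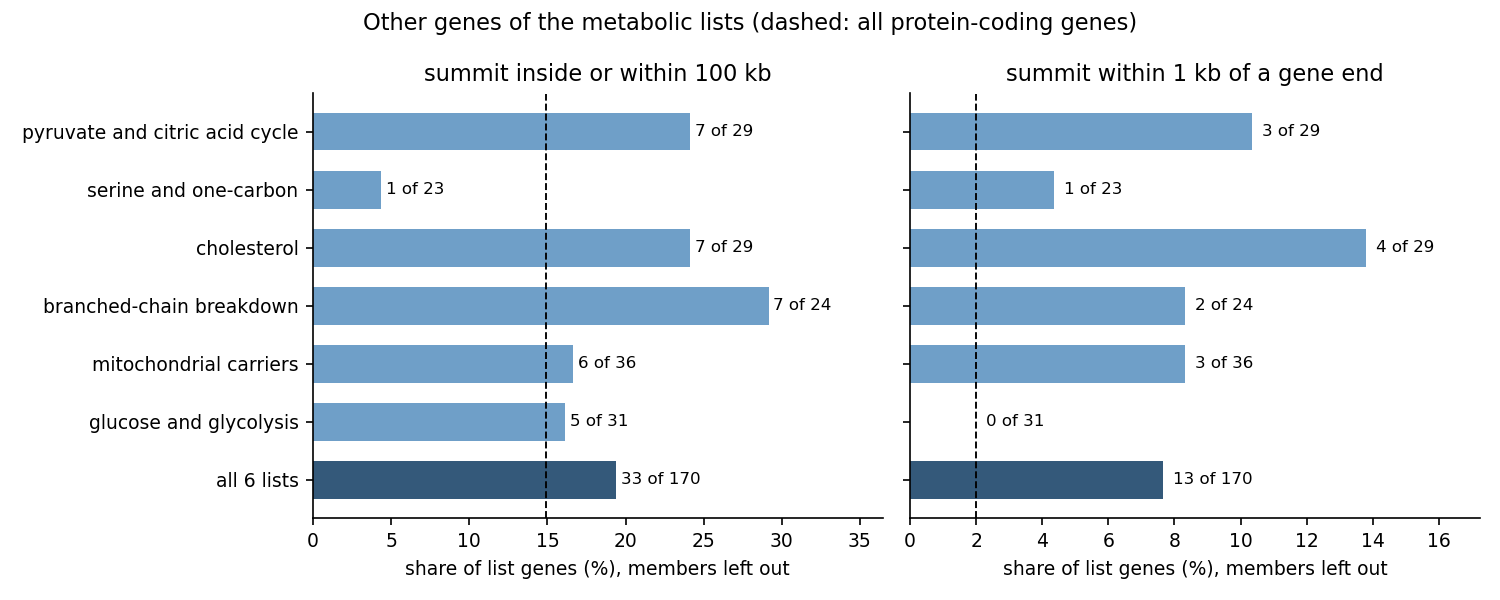
Share of the other genes of each metabolic list (bars, in percent, members left out) with a summit inside or within 100 kb (left) and within 1 kb of a gene end (right); dashed lines are all protein-coding genes, 14.9% and 1.99%. At gene ends the cholesterol list had 4 of 29, and the glucose list had 0 of 31.

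By pathway, the genes around citrate synthase had 7 of 29 within 100 kb and 3 at a gene end. Those 3 were Pcx, pyruvate carboxylase (4.50-fold, 65 bp from the boundary), Pdha1, a pyruvate dehydrogenase subunit gene (3.37-fold, 168 bp, −log10 q 0.23), and Aco1, cytosolic aconitase (3.02-fold, 202 bp, −log10 q 0.23). The strongest summits in reach of this list, at Pdhb (7.35-fold, 31.1 kb) and Pck2 (17 fragments, 54.0 kb), had the nearer genes Pxk and Irf9. Aco1 also had a stronger summit 39.7 kb away (5.93-fold), where Ddx58 was nearer. The cholesterol genes had 7 of 29 and 4 at a gene end. These were Mvk, mevalonate kinase (5.27-fold, 19 bp), Osbp, an oxysterol-binding protein gene (3.79-fold, 326 bp), Insig1, which holds the sterol sensor in the endoplasmic reticulum (3.78-fold, 450 bp, −log10 q 0.44), and Srebf2, the sterol-responsive factor gene (3.59-fold, 255 bp, −log10 q 0.91). Dhcr7 was 34.9 kb from a summit of 9.65-fold for which Acte1 was nearer. Npc1, the partner of Npc2, had a summit 21.1 kb away on 6 fragments (3.08-fold, −log10 q 0.30), with Rmc1 nearer.

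The branched-chain list had 7 of 24 and 2 at a gene end. Aldh6a1, a dehydrogenase of valine breakdown, had the highest fold at a gene end of any listed gene outside the members (8.42-fold, 171 bp, −log10 q 8.91), with 4 summits in reach, and Bckdha, a subunit of the branched-chain keto acid dehydrogenase, had one 3 bp from its boundary (3.44-fold, −log10 q 0.30). Slc3a2, Bckdk and Bcat2 had summits 54.1 to 96.3 kb away (5.01- to 6.28-fold), each with a nearer gene. The mitochondrial carriers had 6 of 36 and 3 at a gene end, namely Slc25a41 at the summit it shares with Khsrp (7.71-fold), Mpc2 of the pyruvate carrier (4.07-fold, 280 bp, with Dcaf6 nearer) and the iron carrier gene Slc25a28 (3.44-fold, 27 bp, −log10 q 0.30). The summit in reach of Slc25a11 (5.93-fold, 21.6 kb) was nearer to Spag7. The glucose list had 5 of 31 and 0 at a gene end, close to the background at 100 kb. Pkm (5.28-fold, 78.4 kb) and Ldhb (5.22-fold, 64.2 kb) had nearer genes, Celf6 and Kcnj8. The serine and one-carbon list, the pathway of Psat1, had 1 of 23, the neutral amino acid transporter gene Slc1a4 (3.08-fold, 248 bp, −log10 q 0.30). This single gene is 4.35% of the list, which is below the background of 14.9% at 100 kb and above that of 1.99% at gene ends.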

How the data were processed

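The data were 1 narrowPeak list for the series, with no header line. Per the submitters' processing notes, the build was GRCm38 (mm10) and the tools named are MACS2 2.2.6, Bowtie2 2.3.5.1, Trimmomatic 0.39, bedtools 2.29.2 and Picard 2.23.0, and SAMtools without a version. The sources used here give neither the settings nor the control of the peak caller. The fold is a deposited ratio, with 1 added to signal and background, and the deposited −log10 p and −log10 q are the caller's. The deposited display score was the whole part of 10 times −log10 p. From the name shared by all peaks (it ends in "Comb"), the values were taken as pooled over both GATA2 replicates.

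Summits (interval start + offset + 1) were set against 21627 protein-coding genes of RefSeq GRCm38.p6. Distances are to the nearer gene boundary, and start sites and strands come from the RefSeq promoter windows. The nearest gene is the protein-coding gene with the nearest boundary. Fragment numbers were solved from fold and p, with a scale of 0.378 and a genome-wide background of 0.0608 (whole within 0.001 for 995 of 995 summits; 6 had more than 1 solution, none of them a member's). On simulated summits, made by shuffling the solved values and applying the same formula and scale, 984 of 984 were recovered. This checks the solving step only, not the formula itself. A background over 1% above the genome-wide level counted as raised. Python 3.11.15, pandas 2.3.3, NumPy 2.4.6, SciPy 1.17.1 and matplotlib 3.10.9 were used.

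The members and lists were chosen with earlier results of these data known. Named were the members, genes nearer to their summits, genes at neighbouring ranks and the 20 listed genes of highest fold, except 1 that is not reported here. Other listed genes, and Isca2, Syk, Foxj2, Nanog, Crb3, Cep78 and Ltbp2, were named after their values were seen. No test was planned, as the list has no replicate values. Alternatives varied the q limit, the distance limit, summits per interval, the gene assignment and the motif.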

Additional observations from a re-analysis of the deposited data

How the results depend on the processing

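Of the 25 values recomputed under alternatives, 21 stayed within 1.5 times the value reported and 4 moved further. With a limit of 10 kb the member summits fell from 10 to 5, and the listed genes with a summit from 39 (members included) to 20. The listed genes numbered 15 with only summits of −log10 q 5 or more, and 20 when each summit was given to the nearest protein-coding gene alone. Each of these settings leaves fewer summits or genes in reach by construction. The 4 summits at the start of a member gene were counted under all 5 alternatives tried for them. None of the 5 could have removed them, so nothing is read from this. Each is the only summit of its interval, with a −log10 q of 13.9 or more. All lie 690 bp or less from a start site. Of these 5, the distance to a start site was chosen after seeing the data. So were leaving out summits with a nearer gene (8 of 10 summits left) and leaving out the member summits (33 listed genes left). Members nearest to a summit numbered 6, and 4 when noncoding genes and pseudogenes could be nearer. No paired analysis was possible because the list pools both replicates, and for the same reason no replicate could be left out. Depth limits the weak summits most, since a single summit with 9 fragments, the median number, has a 95% Poisson interval of 4.12 to 17.1.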

Other observations

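None of the other 5 strings searched in the member promoters was present in all 7 windows. CCAAT, on either strand, occurred at Cs (2 matches), Psat1 at its outer start (3) and Npc2 (2), the windows that hold a summit, and in 1 match at Slc25a23. It had 0 matches at Auh and at the inner Psat1 start, whose window holds no summit but lies inside the Psat1 interval. CCAAT was in 38.5% of all windows of protein-coding genes and 60% of the 205 with a summit. The GC box GGGCGG occurred at Cs (3 matches), Npc2 (3), Auh (3), Slc25a23 (2) and the inner Psat1 start (2), but had 0 matches at the outer Psat1 start, which holds a summit. It was in 46.7% of all windows and 73.7% of those with a summit. The ETS core CCGGAA had 1 match each at Npc2, Auh and the inner Psat1 start, beside 18.9% of all windows and 30.2% of those with a summit. The E-box CACGTG had 0 matches in the member windows, beside 7.91% and 8.78%, and TATAAA also had 0, beside 12.7% and 3.90%.

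Windows with a summit had a median of 21 CpG, beside 13 in all windows. The windows of Cs, Psat1 at its outer start and Npc2 held 18, 20 and 21. Those without a summit held 30 at the inner Psat1 start, 23 at Auh, and 14 and 15 at Slc25a23. Of these, the inner Psat1 window lies inside the Psat1 interval, while the Auh and Slc25a23 windows overlap no interval. The strings were chosen with earlier results of these data known, and the shares carry no test.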
